A study of Drosophila melanogaster with 20 samples.

Results

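The way in which Drosophila carrying an inducible manganese superoxide dismutase (MnSOD) transgene changed with the drug doxycycline (DOX) at equal physiological age was set against the change of control flies. The comparison rests on 16 of the 20 arrays of the series, 4 in each of 4 groups. In the MnSOD line the groups were MnSOD -DOX day 73 and MnSOD +DOX day 83, each taken when about 50% of its own cohort was still alive. These flies were adult sons of a cross between the driver line rtTA(3)E2 and MnSOD(2)22, a single insertion of the MnSOD construct. Control -DOX and Control +DOX were adult sons of Oregon R wild type and the same driver, both sampled when about 50% of the Control -DOX flies survived. The sample labels put that age near day 73, and the series description puts it at day 78. All 4 groups carried the driver, whose rtTA protein is made in every tissue and switches on the MnSOD construct when DOX is fed, and food with or without DOX contained ampicillin. Each array held RNA from 30 whole males. The remaining group, MnSOD +DOX day 73, enters only the estimate of the spread. DOX, transgene induction and 10 further days of age cannot be told apart within the MnSOD line, nor can the transgene insertion and the genetic background when the lines are compared.

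MnSOD is the superoxide dismutase of the mitochondrial matrix, where it turns superoxide leaking from the respiratory chain into hydrogen peroxide. DOX is a tetracycline antibiotic, so it can act on bacteria and on mitochondrial protein synthesis as well as on the rtTA protein, and control flies that lack the MnSOD construct serve to take that part away. In old flies the genes for antimicrobial peptides, which the Imd and Toll pathways switch on in fat body and gut, are known to be expressed at high levels and to vary with the microbes present.

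For each of 14010 probe sets the difference between the lines was the change of the MnSOD line (+DOX day 83 minus -DOX day 73) less the change of control flies (+DOX minus -DOX), on the log2 scale of the deposited values. A value of 1 on this scale is a 2-fold change. The direction of the control change is not settled: read by the sample labels, immune genes were higher with DOX in control flies, which opposes the direction the study gives. Differences are by the labels unless said otherwise, and those with the control sign turned, which equals exchanging the 2 control groups, stand beside them. The study's own counts of higher and lower genes at equal physiological age match those of the sign-turned difference, not those by the labels. The sign-turned difference is thus the one the study reports. Whether the labels or the study's reading of the control groups is right was not tested. Changes within the MnSOD line do not depend on how the control groups are read.

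A probe set was called when its adjusted p in limma was under 0.01 and its fold at least 1.2. By the labels 1139 probe sets were higher (8.13% of those tested) and 1329 lower (9.49%). With the control sign turned 858 were higher (6.12%) and 1471 lower (10.5%), a split that became 1572 and 627 when each array was centred on its median. The array medians fell by 0.07 from MnSOD -DOX to +DOX and by 0.05 from Control -DOX to +DOX. The direct changes gave 422 higher (3.01%) and 877 lower (6.26%) in the MnSOD line against 1692 (12.1%) and 1980 (14.1%) in control flies.

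A difference was taken as driven by the MnSOD line when it was called with the same sign both ways, since the MnSOD change must then exceed the control change in size. It was taken as driven by control flies when turning the control sign turned the call. Both classes hold the same probe sets whichever way the control groups are read. Of the 2468 called differences, 96 (3.89%) were MnSOD-line driven, 36 higher (0.257% of all probe sets) and 60 lower (0.428%). Control flies drove 324 (13.1%), 126 higher (0.899%) and 198 lower (1.41%) by the labels. The other 2048 (83.0%) were called by the labels but not with the sign turned, and for these the data do not decide between the lines.

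The direct changes give a second description. Of the 1139 higher probe sets, 158 were called in the MnSOD line alone, 718 in control flies alone, 71 in both with opposite signs, 1 in both with the same sign and 191 in neither. Of the 1329 lower probe sets, 249 were called in the MnSOD line alone, 737 in control flies alone, 182 in both with opposite signs and 161 in neither. The rule that sets the classes also fixes which line has the larger change, so medians within them describe the classes and do not test them. In the MnSOD-line driven class the median change of the MnSOD line was 0.55 for the higher and -0.56 for the lower members, beside medians of -0.01 and 0.01 (log2) in control flies. In the control driven class the medians of the MnSOD line were 0.02 and -0.02, beside -0.56 and 0.78 in control flies. The values at the ends of the range, 5.75 and -9.59, belonged to probe sets for which the annotation lists no gene.

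Control +DOX replicates 1 to 3 stood apart from the other arrays. Their mean over 9 spike-in probe sets was 8.41, 7.98 and 8.09, against 9.69 in replicate 4 and 9.36 to 10.2 in the other 12 arrays. Their 18S rRNA signal was 8.84, 3.94 and 5.44, against 3.37 in replicate 4. The 3′ minus 5′ signal of long control transcripts, a sign of RNA quality, ran from 1.05 to 1.88 in Control +DOX and from 1.96 to 3.35 in Control -DOX (two-sided exact permutation p = 0.0286, the smallest that 4 against 4 arrays allow). Array measures of the MnSOD line moved too. The 18S rRNA signal was 3.34 to 3.52 in MnSOD +DOX day 83 and 3.56 to 3.73 in MnSOD -DOX (two-sided exact permutation p = 0.0286). The 3′ minus 5′ signal was 1.72 to 2.18 and 1.4 to 1.8 (exact permutation p = 0.0857). The lowest weights that limma gave to arrays were 0.185 for MnSOD +DOX day 83 replicate 1, 0.25 for Control -DOX replicate 1 and 0.251 for Control +DOX replicate 4. The difference also went with signal strength. Its median was 0.13 in the dimmest of the equal parts into which probe sets were divided by mean level, 0.01 and -0.06 in the next ones and -0.10 in the brightest. Without Control +DOX replicates 1 to 3 together, 1 array was left in that group. There 2467 of the 2468 called differences kept their direction, but most lost the call and nearly all members of both classes lost the class. With the spike-in mean as a covariate 781 kept the call. The MnSOD-line driven class was then kept by 3 of its 96 members and the control driven class by 4 of its 324. The covariate went largely with the Control +DOX group. Calls lost under these alternatives can thus come from lost precision and do not show that a change was absent. Counts of gene lists with the control sign turned, where they were above 0 with all arrays, were 0 or 1 in either direction under both alternatives.

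**Figure D1:**
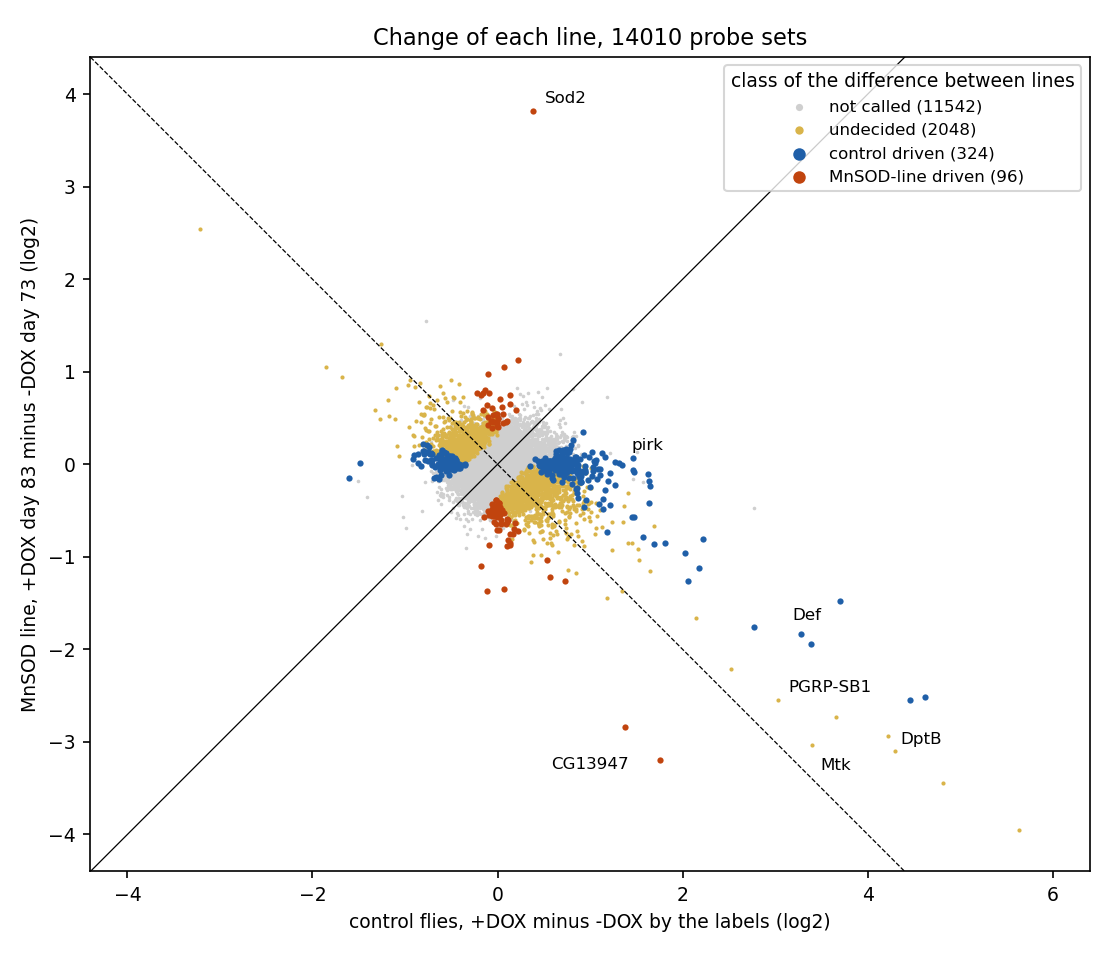
Change of the MnSOD line (vertical axis, log2) against the change of control flies by the labels (horizontal axis, log2) for each of 14010 probe sets, coloured by class; the solid line marks equal change and the dashed line equal and opposite change. Sod2 lies at 3.82 and 0.38, pirk at 0.01 and 1.31, and the immune genes DptB, Mtk, PGRP-SB1 and Def lie to the lower right, with a fall in the MnSOD line and a rise in control flies.

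Sod2, the gene for MnSOD, had the strongest rise of the MnSOD line among the genes named here and checks the labels of that line. Its values were 8.42, 8.36, 8.47 and 8.42 in MnSOD -DOX and 12.24, 12.26, 12.24 and 12.22 in MnSOD +DOX day 83, a rise of 3.82 (standard error 0.0941, 14.1-fold, adjusted p = 1.59e-18). The 2 groups were far apart, and their SDs were 0.0477 and 0.0175. Control -DOX read 7.66, 7.38, 7.56 and 7.67, and Control +DOX 8.14, 7.98, 8.07 and 7.59. Thus 3 of the 4 Control +DOX arrays lay above every Control -DOX array and replicate 4 lay among them. This control change of 0.38 passed limma (adjusted p = 0.00312) but not the exact permutation test (two-sided p = 0.0857), and it was not called without replicates 1 to 3. The difference between the lines was 3.44 by the labels (standard error 0.133, exact two-sided p = 0.0278) and 4.20 with the control sign turned (exact p = 0.00122). Both values were called in each alternative processing tried.

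Among the other genes that rose in the MnSOD line and drove the difference, Lst encodes limostatin, a hormone that restrains insulin release. Lst read 7.24, 8.07, 7.77 and 7.31 in MnSOD -DOX and 8.62, 8.65, 8.73 and 8.31 in MnSOD +DOX day 83, a rise of 0.98 (standard error 0.135, adjusted p = 3.81e-05). The groups did not overlap, and the induced flies reached the level of control flies, which read 8.43 to 8.78 without DOX and 8.41 to 8.67 with it. The difference was 1.08 by the labels (adjusted p = 0.000251) and 0.87 with the sign turned (adjusted p = 0.0023). ImpL2, whose secreted product binds insulin-like peptides and keeps them from the receptor, rose from 8.33 to 8.61 to between 8.82 and 9.13, by 0.49 (standard error 0.0766, adjusted p = 0.00015). In control flies ImpL2 changed by 0.01 (adjusted p = 0.951), so its difference was 0.48 by the labels and 0.50 with the sign turned. Of 13 measured genes of insulin, FOXO and TOR signalling, a list without Lst and ImpL2, 1 was higher and 0 lower by the labels. With the sign turned 2 were higher and 0 lower, and in the MnSOD line 0 were called by limma. Over all probe sets 8.13% were higher and 9.49% lower by the labels, 6.12% and 10.5% with the sign turned, and 3.01% and 6.26% in the MnSOD line.

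Sumo, the small ubiquitin-like modifier, read 8.20, 8.21, 8.20 and 8.37 in MnSOD -DOX and 8.84, 8.97, 9.20 and 9.07 in MnSOD +DOX day 83. That rise of 0.77 (standard error 0.0869, adjusted p = 3.9e-06) put 3 of the 4 induced arrays above the control range of 8.51 to 8.91, and the difference was 0.94 by the labels and 0.61 with the sign turned. Sirup, an assembly factor of succinate dehydrogenase in the respiratory chain, rose by 0.80 (standard error 0.109, adjusted p = 3.38e-05), from between 7.75 and 8.28 to between 8.63 and 8.93. Control flies lay between 7.74 and 8.20 for Sirup, with overlapping groups and differences of 0.93 and 0.66. Cyp28a5, a cytochrome P450, rose by 0.74 (differences 0.92 and 0.57) and CG13482 by 1.12 (0.91 and 1.34). Each of these genes kept its class with each of the 20 arrays left out in turn, except Sirup without Control +DOX replicate 1, where the sign-turned difference was 0.60 (adjusted p = 0.0103). When quantile normalization was repeated, Lst (0.65, adjusted p = 0.0168), Sumo (0.37, adjusted p = 0.0301), Sirup (0.46, adjusted p = 0.0307) and ImpL2 (0.22, adjusted p = 0.155) lost the sign-turned call and with it the class. Apart from Sod2, all of them lost the class without Control +DOX replicates 1 to 3 together and with the spike-in covariate. Lst, Sumo, Sirup and Cyp28a5 kept the called difference by the labels in both. The difference of CG13482 was 0.59 without the 3 arrays (adjusted p = 0.107) and 0.64 with the covariate (adjusted p = 0.0279). That of ImpL2 was 0.38 (adjusted p = 0.102) and 0.49 (adjusted p = 0.0126).

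Of 13 measured genes for Hsp70, Hsp90, their partners and their regulator, 3 were higher in the difference by the labels, 1 was lower (Hsf, the heat shock transcription factor) and 9 did not pass, beside shares over all probe sets of 8.13% higher and 9.49% lower. With the control sign turned 8 were higher and 0 lower by limma (6.12% and 10.5% over all), the higher count becoming 0 without Control +DOX replicates 1 to 3 or with the spike-in covariate. The MnSOD change was higher in 4 and lower in 0 (3.01% and 6.26% over all probe sets), with a median of 0.19 beside -0.04 over all genes. The 3 higher members were all MnSOD-line driven. Hsp60A, the mitochondrial chaperonin, read 9.12, 8.94, 9.02 and 9.06 in MnSOD -DOX and 9.38, 9.54, 9.47 and 9.46 in MnSOD +DOX day 83. Hsc70-5, the mitochondrial Hsp70, read 8.06, 7.95, 7.96 and 7.91 and then 8.40, 8.73, 8.64 and 8.70. Neither gene's groups overlapped in the MnSOD line. The MnSOD rises were 0.43 for Hsp60A (standard error 0.0622, adjusted p = 7.52e-05), 0.65 for Hsc70-5 (standard error 0.0958, adjusted p = 8.44e-05) and 0.47 for Hsc70-4, the constitutive cytosolic Hsp70 (standard error 0.0733, adjusted p = 0.000146). In control flies the same genes changed by -0.10, 0.14 and 0.10, with adjusted p of 0.173, 0.24 and 0.279. The control groups overlapped for Hsc70-5 and Hsc70-4. For Hsp60A they lay side by side, at 9.02 to 9.19 without DOX and 8.94 to 9.01 with it.

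The class of these chaperones was not stable. Hsp60A kept it only without MnSOD -DOX replicate 1, MnSOD +DOX day 83 replicate 1, Control -DOX replicate 3 or Control +DOX replicate 4, and lost it without any other array. The sign-turned difference of Hsp60A, 0.32 with all arrays, then had adjusted p of 0.0104 to 0.0232. It was 0.06 when quantile normalization was repeated (adjusted p = 0.66), and it also missed the threshold with the replicate block (adjusted p = 0.0122), on the 16 arrays alone (adjusted p = 0.0189) and with trend and robust eBayes (adjusted p = 0.0113). Hsc70-4 lost the call of its difference in 15 of the 20 refits (adjusted p of 0.0103 to 0.0236) and kept it only without MnSOD -DOX replicate 3, MnSOD +DOX day 83 replicate 1, Control -DOX replicate 1 or 3, or Control +DOX replicate 4, and it lost it on the 16 arrays alone (adjusted p = 0.0188). Hsc70-5 lost it in 11 (0.0122 to 0.016), namely without MnSOD -DOX replicates 2, 3 or 4, MnSOD +DOX day 83 replicates 2, 3 or 4, Control -DOX replicates 1, 2 or 4, or Control +DOX replicates 2 or 3. Without Control +DOX replicates 1 to 3 together no member of the list was called higher in the difference.

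Among the genes named here CG13947 had the deepest MnSOD-line driven fall. It read 12.25, 11.94, 12.21 and 12.77 in MnSOD -DOX and 8.78, 8.97, 8.89 and 9.73 in MnSOD +DOX day 83, so that it fell by 3.20 (standard error 0.222, 9.19-fold, adjusted p = 2.23e-09). In control flies it went the other way by the labels, from between 8.76 and 9.97 to between 10.66 and 11.18, a change of 1.75 (adjusted p = 7.93e-06). The difference was -4.95 by the labels and -1.45 with the sign turned (adjusted p = 0.00225), and a second probe set of the gene gave -4.22 by the labels. CG13947 kept its class with each array left out but not under the 2 alternatives for the control arrays that stood apart.

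Jon25Bii, one of the Jonah serine proteases that digest protein in the midgut, read 8.59, 8.42, 7.99 and 8.95 in MnSOD -DOX and 6.97, 7.13, 6.86 and 7.50 in MnSOD +DOX day 83. The fall of 1.37 (adjusted p = 2.47e-05) brought it toward control flies, which read 6.64 to 7.12 in both groups together. The difference was -1.25 by the labels (adjusted p = 0.000913) and -1.49 with the sign turned, and it was not called without Control +DOX replicates 1 to 3 (adjusted p = 0.0296) or with the covariate (adjusted p = 0.0144). CG17097 fell by 1.35 (adjusted p = 7.77e-06) from between 9.37 and 9.70 to between 7.84 and 8.64, and its control groups overlapped within 8.78 to 9.48. The difference of CG17097, -1.42 by the labels and -1.27 with the sign turned, was by the labels -1.19 without Control +DOX replicates 1 to 3 (adjusted p = 0.0135). Sems, a serine protease of seminal fluid, fell by 0.89 (standard error 0.0908, adjusted p = 1.09e-06), from 6.71, 6.55, 6.59 and 6.72 to 5.59, 5.70, 5.76 and 5.98. Both control groups lay between these levels, at 5.99 to 6.34 and 6.17 to 6.47, for differences of -0.99 and -0.78. msopa, a male-specific transcript, fell by 0.88 (adjusted p = 1.36e-05), for differences of -1.02 and -0.74. These 4 genes kept the class with each array left out, and CG17097 and Sems kept it with the spike-in covariate too.

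The accessory glands make the seminal proteins passed to females at mating. Of 19 such genes measured, 8 were lower in the difference by the labels, 1 was higher (Acp65Aa, whose name is that of an adult cuticle protein) and 10 did not pass, with a median of -0.30 beside -0.01 over all genes. With the sign turned 5 were lower and 0 higher by limma (median -0.23), and the 5 ran from 2 to 5 with 1 array left out, with 2 without MnSOD -DOX replicate 2, MnSOD +DOX day 83 replicate 2 or 3 or Control +DOX replicate 1. In the MnSOD line alone 8 were lower and 0 higher (median -0.32), and in control flies 6 were higher and 1 lower by the labels. Over all probe sets 9.49% were lower by the labels, 10.5% with the sign turned and 6.26% in the MnSOD line. In control flies 12.1% of all probe sets were higher and 14.1% lower. Acp26Aa, which stimulates ovulation, fell from 6.66, 6.99, 6.78 and 7.12 to 6.05, 5.94, 5.96 and 6.43 in the MnSOD line, by 0.79 (adjusted p = 9.19e-05). It rose by 0.57 in control flies by the labels (adjusted p = 0.000847), so the difference was -1.36 and, with the sign turned, -0.23 (adjusted p = 0.292). Acp63F and the serpin Spn28F had differences of -1.10 and -1.13, and of -0.21 and -0.18 with the sign turned (adjusted p = 0.329 and 0.366). In whole-fly RNA fewer cells of a type and less RNA per cell cannot be told apart. Array medians over the 19 genes were 8.06 to 8.13 in MnSOD -DOX, 7.67 to 8.16 in MnSOD +DOX day 83, 7.84 to 8.17 in Control -DOX and 8.05 to 8.30 in Control +DOX. Without Control +DOX replicates 1 to 3, the 8 lower differences by the labels became 4, and 5 with the spike-in covariate. The 6 control rises dropped to 0 in both, and to 3 without Control -DOX replicate 2 or 3 and 2 without Control +DOX replicate 3.

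Among genes of sperm development the calls by the labels ran mostly the other way. Of 33 spermatid structural genes and their regulators 11 were higher in the difference, 1 lower (tomb) and 21 did not pass (median 0.26), and the higher count became 5 without Control +DOX replicates 1 to 3 and 7 with the covariate. With the sign turned 3 were higher and 3 lower (median 0.11), and the higher count ran from 1 to 6 with 1 array left out, the 6 without MnSOD +DOX day 83 replicate 1 or Control +DOX replicate 4. Over all probe sets 8.13% were higher and 9.49% lower by the labels, and 6.12% and 10.5% with the sign turned. In the MnSOD line 10 were higher, beside 3.01% higher and 6.26% lower over all probe sets. The 3 that were lower there were tomb and the pair Mst57Da and Mst57Dc, peptides known from the accessory gland rather than from sperm, and the count was 1 without any 1 of the MnSOD -DOX arrays or without MnSOD +DOX day 83 replicate 2. Mst84Dc, a cysteine-rich sperm tail protein, read 10.41, 10.36, 10.43 and 10.63 in MnSOD -DOX and 11.46, 11.23, 11.35 and 11.19 in MnSOD +DOX day 83. Control flies ran from 11.56 to 11.85 without DOX and from 10.79 to 11.37 with it. The rise of 0.85 in the MnSOD line (standard error 0.108, adjusted p = 1.78e-05) thus met a fall of 0.62 in control flies by the labels (adjusted p = 0.000201). The difference was 1.47 by the labels (adjusted p = 3.92e-07) and 0.23 with the sign turned (adjusted p = 0.25). Mst84Da gave 1.01 and -0.04. The higher count of the MnSOD line was 6 without MnSOD -DOX replicate 1, 2 or 3 or MnSOD +DOX day 83 replicate 3. The array medians of the list were 6.74 to 7.11 in MnSOD -DOX, 6.51 to 7.04 in MnSOD +DOX day 83, 7.06 to 7.26 in Control -DOX and 6.99 to 7.15 in Control +DOX. Array medians over 13 female yolk and eggshell genes were 6.60 to 6.70 in MnSOD -DOX, 6.24 to 6.53 in MnSOD +DOX day 83, 6.46 to 6.76 in Control -DOX and 6.16 to 6.54 in Control +DOX, above the medians of all probe sets on these arrays (5.49 to 5.68). No mean of the 4 groups was above 7.03 for any member. By the labels 13 of 13 did not pass in the difference, and with the sign turned 9 were lower (median -0.51), beside 10.5% over all probe sets. The 9 became 4 without Control +DOX replicate 1 or 3 and 5 without Control -DOX replicate 2 or 3.

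**Figure D2:**
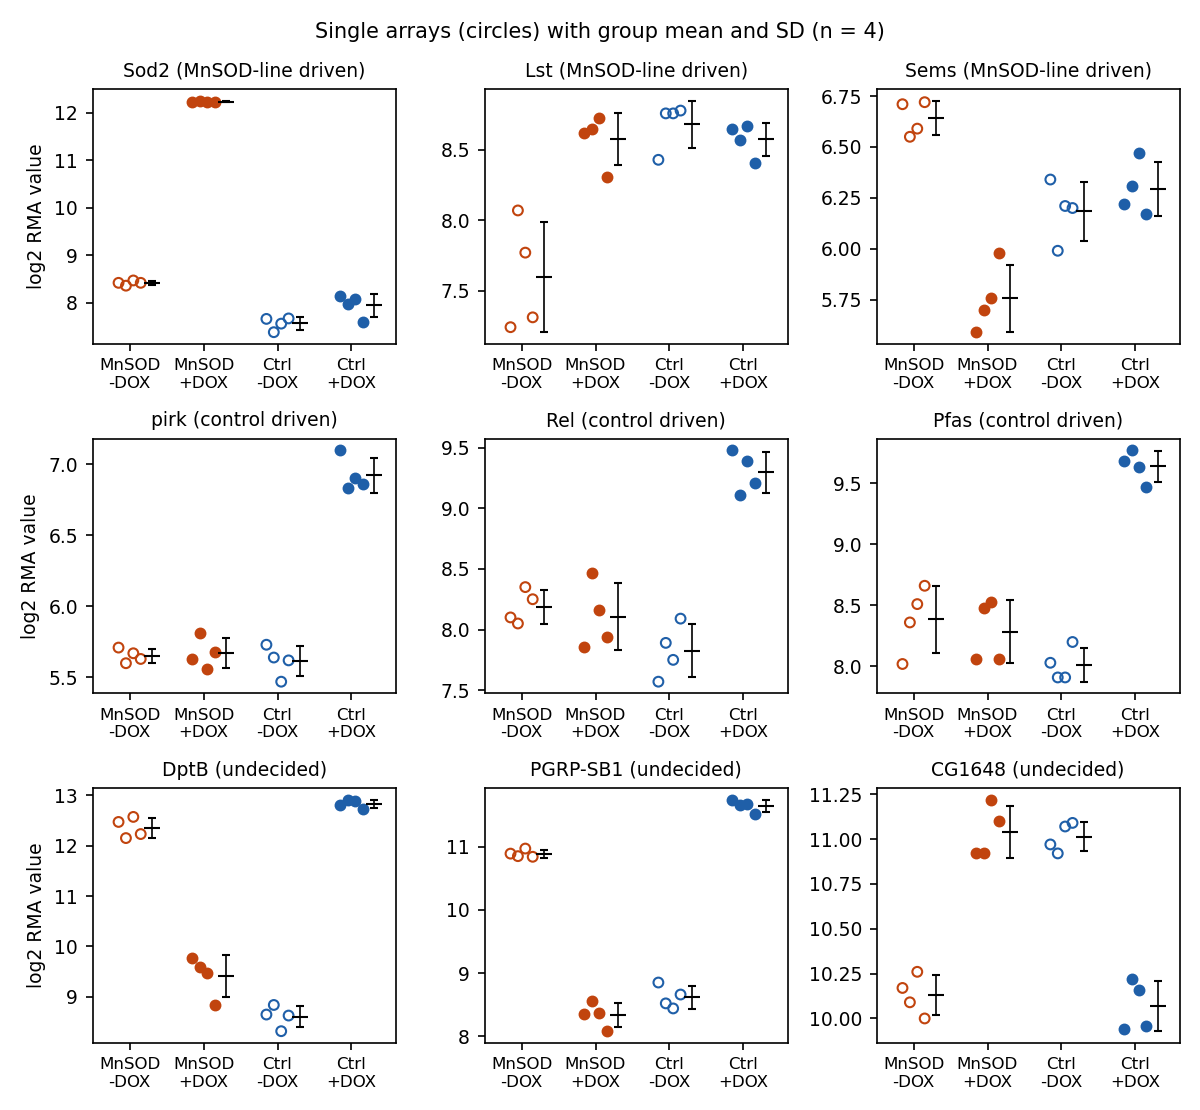
Deposited log2 RMA values of 9 genes on each of the 16 arrays (circles; open without DOX, filled with DOX; red MnSOD line, blue control flies), with group mean and SD, n = 4. Sod2, Lst and Sems move in the MnSOD line, pirk, Rel and Pfas stand high in Control +DOX alone, and DptB, PGRP-SB1 and CG1648 move in opposite ways in the lines.

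The control driven class held 3 of the 15 measured genes of the Imd pathway, the branch of fly immunity that senses bacterial peptidoglycan, namely pirk, Rel and Diap2. pirk, an inhibitor of that pathway, read 5.71, 5.60, 5.67 and 5.63 in MnSOD -DOX, 5.63, 5.81, 5.56 and 5.68 in MnSOD +DOX day 83 and 5.73, 5.64, 5.47 and 5.62 in Control -DOX. It read 7.10, 6.83, 6.90 and 6.86 in Control +DOX. The first 3 groups overlapped and the fourth lay above them all, for a control change of 1.31 (standard error 0.0758, 2.48-fold, adjusted p = 5.51e-11) beside 0.01 in the MnSOD line (adjusted p = 0.913). The difference was -1.29 by the labels and 1.32 with the sign turned. pirk kept its class with each of the 20 arrays left out, without Control +DOX replicates 1 to 3 together and with the spike-in covariate.

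Rel, the NF-kappaB factor Relish that the Imd pathway activates, stood at 9.48, 9.11, 9.39 and 9.21 in Control +DOX. The other groups ranged from 7.57 to 8.47, and the MnSOD line changed by -0.08 (adjusted p = 0.701) beside 1.48 in control flies (standard error 0.131, adjusted p = 4.39e-08), for differences of -1.56 and 1.40. PGRP-LF, a membrane protein that holds the pathway's receptor in check, stood at 4.64 to 5.03 in Control +DOX against 3.59 to 4.19 in the other arrays, a control change of 1.03 (adjusted p = 8.6e-08) and differences of -1.06 and 1.00. Diap2, a ubiquitin ligase of the pathway, changed by 0.78 in control flies and 0.06 in the MnSOD line, for -0.72 and 0.84. Irc, a catalase expressed in the gut that removes hydrogen peroxide during immune responses, changed by 1.14 in control flies (adjusted p = 3.77e-07) and by -0.37 in the MnSOD line (adjusted p = 0.0261), for -1.51 and 0.77. Under both alternatives for the control arrays Rel, PGRP-LF and Irc kept the called difference by the labels. Rel and Irc lost the sign-turned call and so the class in both, and PGRP-LF lost it without the 3 arrays (adjusted p = 0.0125) and kept it with the covariate. Diap2 lost the call by the labels as well, at -0.36 without the 3 arrays (adjusted p = 0.208) and -0.46 with the covariate (adjusted p = 0.0618).

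Of 15 Imd pathway genes 4 were lower in the difference by the labels (9.49% of all probe sets were), 0 higher and 11 did not pass, and 5 were higher with the sign turned (6.12% of all), a count of 3 without MnSOD -DOX replicate 2 or 4, MnSOD +DOX day 83 replicate 2 or Control +DOX replicate 1, 2 or 3. Control flies had 5 higher (3 without Control +DOX replicate 1) and 1 lower, beside 12.1% and 14.1% over all probe sets. In the MnSOD line 0 were called by limma, beside 3.01% higher and 6.26% lower over all. Of 17 Toll pathway genes 7 were lower in the difference by the labels and 0 higher, while with the sign turned 3 were higher and 2 lower (medians -0.16 and 0.07). The 3 became 1 without MnSOD -DOX replicate 1, 2 or 3, MnSOD +DOX day 83 replicate 2 or 3, Control -DOX replicate 3 or Control +DOX replicate 1, and the 2 ran from 1 to 4 with 1 array left out, the 4 without Control +DOX replicate 4. The lower counts by the labels fell to 2 for Imd and 1 for Toll without Control +DOX replicates 1 to 3, and to the same counts with the covariate. The study picked immune genes on these same arrays, so the counts of immune lists are not independent evidence of their direction. spz, the ligand of the Toll receptor, had a difference of -1.41 by the labels (adjusted p = 7.24e-06) and 0.54 with the sign turned (adjusted p = 0.0248), with control flies at 0.97 (adjusted p = 1.28e-05) and the MnSOD line at -0.43 (adjusted p = 0.0196).

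Most antimicrobial peptides changed in both lines. Of 8 measured, 6 were lower in the difference by the labels and 2 did not pass, namely Drsl5 at -0.42 and Drsl6 at -0.46. The list median was -3.14 beside -0.01 over all genes, with medians of -1.04 in the MnSOD line, where 6 were lower (Drsl6 in place of CecB), and 2.10 in control flies, where 6 were higher by the labels. With the control sign turned 4 were higher and 1 lower, beside 6.12% and 10.5% over all probe sets. The shares over all were 9.49% lower by the labels, 6.26% lower in the MnSOD line and 12.1% higher in control flies. The 6 lower calls and the 6 control rises were also counted without Control +DOX replicates 1 to 3 and with the spike-in covariate, whereas the 4 higher calls with the sign turned became 1 and 0. The same reservation about the study's choice of genes applies.

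DptB, a diptericin active against Gram-negative bacteria, read 12.47, 12.15, 12.57 and 12.23 in MnSOD -DOX and 9.78, 9.60, 9.47 and 8.83 in MnSOD +DOX day 83. Control flies read 8.65, 8.84, 8.32 and 8.63 without DOX and 12.81, 12.90, 12.89 and 12.72 with it, by the labels. MnSOD -DOX and Control +DOX were thus the high groups and the others the low ones, with no overlap between high and low. DptB fell by 2.93 in the MnSOD line (standard error 0.315, 7.64-fold, adjusted p = 1.97e-06) and rose by 4.22 in control flies (adjusted p = 2.6e-09), so the difference was -7.15 by the labels (standard error 0.445) and 1.28 with the sign turned (adjusted p = 0.0302). Without MnSOD +DOX day 73 replicate 1 the latter passed (adjusted p = 0.00265) and DptB became control driven. Mtk, the antifungal and antibacterial metchnikowin, had the same pattern, with 12.72 to 13.00 and 12.87 to 13.23 in the high groups and 9.27 to 10.16 and 9.03 to 10.00 in the low ones. Its 2 changes were close in size, -3.03 and 3.40, and with the sign turned the difference was 0.36 (standard error 0.455, adjusted p = 0.546).

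In Def, Drs and AttD the control change was the larger by the test, so they were control driven. Def, the defensin gene, read 8.97, 8.70, 9.13 and 9.21 in MnSOD -DOX, 7.57, 7.41, 7.07 and 6.60 in MnSOD +DOX day 83, 6.53, 6.30, 6.29 and 5.81 in Control -DOX and 9.66, 9.57, 9.29 and 9.52 in Control +DOX. It fell by 1.84 in the MnSOD line (adjusted p = 1.11e-05) and rose by 3.28 in control flies by the labels (adjusted p = 5.85e-10). The difference was -5.12 and, with the sign turned, 1.44 (adjusted p = 0.00255). Drs, the antifungal drosomycin, gave -3.31 and 1.06, and AttD, an attacin, -2.98 and 1.06. CecB, a cecropin named after its values were seen, gave -2.06 and 1.22. Listericin, an antibacterial peptide gene listed with the Bomanins and other Toll-induced peptides, gave -3.02 and 1.41. Of 11 in that list 3 were higher and 2 lower by the labels (median 0.38), beside 8.13% and 9.49% over all probe sets. With the sign turned 3 were higher and 0 lower. In the MnSOD line 3 were higher and 1 lower, beside 3.01% and 6.26% over all, and in control flies 1 was higher and 2 lower by the labels. Def, Drs, AttD, CecB and Listericin kept the class with each array left out. Without Control +DOX replicates 1 to 3 CecB kept it, the other 4 were called by the labels only, and with the spike-in covariate all 5 were called by the labels only.

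Peptidoglycan recognition proteins bind or cut the bacterial cell wall fragments that start the immune response. Of 9 measured, 4 were lower in the difference by the labels and 0 higher, while 2 were higher with the sign turned. Over all probe sets 8.13% were higher and 9.49% lower by the labels, and 6.12% were higher with the sign turned. The count of 4 was unaltered under both alternatives for the control arrays. PGRP-SB1, a secreted amidase that cleaves peptidoglycan, read 10.89, 10.85, 10.97 and 10.84 in MnSOD -DOX and 8.35, 8.55, 8.37 and 8.08 in MnSOD +DOX day 83. Control flies read 8.44 to 8.85 without DOX and 11.51 to 11.74 with it, so the high and low groups were again well separated. The difference was -5.58 (standard error 0.21, 47.9-fold, adjusted p = 1.77e-14) by the labels and 0.48 with the sign turned (adjusted p = 0.0773). PGRP-SC2, an amidase of the gut, gave -2.63 and -0.26 (adjusted p = 0.199). PGRP-LB, an amidase that damps the Imd pathway, was control driven at -2.35 and 0.79, but undecided under both alternatives for the control arrays, with 8.87 to 9.17 in Control +DOX, 7.99 to 8.33 in MnSOD -DOX and 7.18 to 7.55 in the other groups. The array medians over 9 haemocyte markers, genes of the fly's blood cells, of which 4 were lower and 1 higher in the difference by the labels and 2 higher with the sign turned, ran from 6.34 to 6.53 in MnSOD -DOX, 6.44 to 6.57 in MnSOD +DOX day 83, 5.92 to 6.72 in Control -DOX and 6.44 to 6.53 in Control +DOX. The 4 became 2 without MnSOD -DOX replicate 1, 2 or 3, Control -DOX replicate 3 or Control +DOX replicate 1 or 3, and the part of blood cells in these results was not tested.

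Purines, the bases of ATP and nucleic acids, are built up from simple precursors by a chain of enzymes. Of 9 measured enzymes of the de novo pathway 7 were lower in the difference by the labels, 0 higher and 2 did not pass, with a median of -1.22, beside 9.49% lower over all probe sets. With the sign turned 3 were higher and 0 lower by limma, with a median of 0.61, and 5 were higher without MnSOD +DOX day 83 replicate 1 or Control +DOX replicate 4. In control flies 7 were higher (median 0.93), beside 12.1% over all probe sets. In the MnSOD line 3 were lower (median -0.20), beside 6.26% over all, and these 3 became 1 without MnSOD +DOX day 83 replicate 1. The study names purine genes on these arrays, so this list is not independent evidence either. Pfas, the synthase of the fourth step, read 8.02, 8.36, 8.51 and 8.66 in MnSOD -DOX, 8.06, 8.48, 8.53 and 8.06 in MnSOD +DOX day 83, 8.03, 7.91, 7.91 and 8.20 in Control -DOX and 9.68, 9.77, 9.63 and 9.47 in Control +DOX. Only the last group stood clear of the others, at a control change of 1.63 (standard error 0.125, 3.09-fold, adjusted p = 3.9e-09) beside -0.10 in the MnSOD line (adjusted p = 0.586), for differences of -1.73 and 1.52. Gart, which carries out several steps of the pathway, changed by 1.45 in control flies and -0.57 in the MnSOD line (adjusted p = 0.00367), for -2.02 and 0.88. Pfas was undecided without Control +DOX replicates 1 to 3 and Gart was undecided there and with the covariate. Prat2, the enzyme of the first committed step, and Adsl, the lyase that acts late, had differences of -1.86 and -1.45, of 0.61 and 0.40 with the sign turned (adjusted p = 0.0273 and 0.0116), and were undecided. Both became control driven without Control +DOX replicate 4, and Adsl also without MnSOD +DOX day 83 replicate 1 or Control -DOX replicate 4. The 7 lower calls became 4 and the 7 control rises 3 without Control +DOX replicates 1 to 3, and with the covariate they became 6 and 4.

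Folate enzymes supply the one-carbon units that purine synthesis uses. Of 8 measured 4 were lower in the difference by the labels and 0 higher, also under both alternatives for the control arrays. With the sign turned 3 were higher and 0 lower by limma (medians -0.72 and 0.38), and 5 were higher in control flies, the latter a count of 2 in both alternatives. Over all probe sets 9.49% were lower by the labels, 6.12% higher with the sign turned and 12.1% higher in control flies. The 2 folate genes lower in control flies, Fpgs1 and Ts, were called in neither. pug, which interconverts folate intermediates, was control driven at -1.53 by the labels and 0.66 with the sign turned. The latter was 0.43 when quantile normalization was repeated (adjusted p = 0.0172), which ended the class. It stood at 9.09 to 9.43 in Control +DOX, 8.61 to 8.95 in MnSOD -DOX, 8.13 to 8.55 in MnSOD +DOX day 83 and 7.89 to 8.23 in Control -DOX. Shmt, which moves the one-carbon unit from serine to folate, was control driven at -1.10 and 0.71, with 0.91 in control flies (adjusted p = 1.11e-07) and -0.19 in the MnSOD line (adjusted p = 0.11). pug and Shmt were undecided under both alternatives for the control arrays. CG3999 and CG6415, of the glycine cleavage system, had differences of -1.59 and -0.98, of 0.61 and 0.10 with the sign turned, both undecided. CG3999 became control driven without MnSOD -DOX replicate 4, Control -DOX replicate 4 or Control +DOX replicate 4.

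Other control driven genes lay outside these pathways. Ect3, a beta-galactosidase gene, read 7.64 to 7.96 in Control +DOX and 5.57 to 6.92 elsewhere, with a difference of -2.55 by the labels and 0.83 with the sign turned, and was undecided under both alternatives for the control arrays. CG8560 was a control driven rise by the labels, and it read 8.13, 7.57, 7.75 and 7.94 in Control -DOX against 6.98, 7.09, 6.95 and 7.13 in Control +DOX. The MnSOD line lay between 7.07 and 7.53 for CG8560, so Control -DOX was the group apart. Its difference of 0.95, and -0.67 with the sign turned, was by the labels no longer called without Control +DOX replicates 1 to 3 (0.86, adjusted p = 0.021), and with the covariate it was undecided.

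Opposite changes of the lines were not limited to immunity. CG1648 read 10.17, 10.09, 10.26 and 10.00 in MnSOD -DOX, 10.92, 10.92, 11.22 and 11.10 in MnSOD +DOX day 83, 10.97, 10.92, 11.07 and 11.09 in Control -DOX and 9.94, 10.22, 10.16 and 9.96 in Control +DOX. MnSOD -DOX and Control +DOX were here the low groups, the mirror image of DptB. The changes were 0.91 and -0.94, the difference 1.85 (adjusted p = 2.93e-10) and, with the sign turned, -0.03 (standard error 0.127, adjusted p = 0.853). CG16824 and CG12057 gave differences of 1.92 and 1.87, and of -0.27 and -0.49 with the sign turned (adjusted p = 0.313 and 0.0532). For CG16824 the fourth Control +DOX array read 6.96 and the others 6.13 to 6.25, and a second probe set gave 0.61. The odorant-binding protein gene Obp56a fell by 1.15 in the MnSOD line and rose by 1.64 in control flies by the labels, for -2.80 and 0.49. Jon74E, a Jonah protease, had a difference of 1.39 by the labels, opposite in sign to Jon25Bii, and of -0.16 with the sign turned (adjusted p = 0.344). Of 27 midgut serine proteases 4 were higher and 5 lower in the difference by the labels (8.13% and 9.49% of all probe sets were), but 0 higher by limma and 12 lower with the sign turned (6.12% and 10.5% of all), with medians of 0.15 and -0.50. In the direct changes 8 were lower and 2 higher in the MnSOD line, beside 6.26% and 3.01% over all probe sets. In control flies 11 were lower and 1 higher by the labels, beside 14.1% and 12.1% over all. The 11 fell to 0 without Control +DOX replicates 1 to 3, to 6 without Control +DOX replicate 1 and to 7 without Control -DOX replicate 1 or 3. The 4 higher genes were Jon74E and the trypsins alphaTry, betaTry and zetaTry. The 5 lower ones included Ser8 at -1.37 (-0.60 with the sign turned, adjusted p = 0.018), which by the labels without Control +DOX replicates 1 to 3 was -1.02 (adjusted p = 0.0106). Without those 3 arrays 0 of the list were lower by the labels in limma, and 2 with the covariate.

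Fuel metabolism gave further pairs. whd, the carnitine palmitoyltransferase that admits fatty acids to mitochondria, read 8.07, 8.30, 8.33 and 8.01 in MnSOD -DOX and 8.80, 8.89, 8.84 and 8.97 in MnSOD +DOX day 83, a rise of 0.70 (standard error 0.116, adjusted p = 0.000291). Control flies read 8.55 to 8.89 without DOX and 7.75 to 8.55 with it, a fall of 0.65 by the labels (adjusted p = 0.000236). The difference was 1.35 and, with the sign turned, 0.04 (adjusted p = 0.86). Pepck1, an enzyme of gluconeogenesis, rose by 0.57 in the MnSOD line and gave differences of 0.97 and 0.16. Lsd-1, a perilipin on lipid droplets, fell by 0.87 (adjusted p = 0.00118) and gave -1.45 and -0.28, and Mtp, which loads lipid onto lipoproteins, fell by 0.56 and gave -0.92 and -0.20. None of these 3 passed with the sign turned (adjusted p = 0.317, 0.355 and 0.165). Of 19 genes of lipid storage and lipolysis 2 were higher in the difference by the labels (whd and mag), 7 lower and 10 did not pass, beside 8.13% higher and 9.49% lower over all probe sets. Turning the sign gave 2 higher and 0 lower by limma, and the medians were -0.32 and 0.16. The 2 with the sign turned became 1 without MnSOD -DOX replicate 2, MnSOD +DOX day 83 replicate 2 or 3 or Control +DOX replicate 1 or 3. The 7 became 1 without Control +DOX replicates 1 to 3, where whd, Pepck1 and Mtp kept their calls and Lsd-1 did not (-1.02, adjusted p = 0.0492), and 6 with the covariate.

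Of 32 genes for respiratory complex I, 0 were higher by limma and 2 lower in the difference by the labels (median 0.02). With the sign turned and in the MnSOD line 0 of these were called by limma. Of 39 genes for respiratory complexes II to IV and ATP synthase, 6 were higher in the difference by the labels and 0 lower by limma (median 0.15), beside 8.13% higher and 9.49% lower over all probe sets. Turning the sign left 1 higher and 0 lower (median 0.08), and the 1 became 0 without MnSOD -DOX replicate 2, MnSOD +DOX day 83 replicate 3, Control -DOX replicate 3 or Control +DOX replicate 1 or 3 and 2 without Control +DOX replicate 4. Among the 6 was blw, the alpha subunit of ATP synthase, at 0.57 (-0.02 with the sign turned, adjusted p = 0.905). The 6 became 1 without Control +DOX replicates 1 to 3, and without Control +DOX replicate 4 alone 4 members were lower.

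The direction of the chemosensory receptors, through which flies smell and taste, depended on the reading of the control groups. By the labels 7 were higher and 1 lower of 53 odorant receptors and 9 higher and 0 lower of 71 gustatory and ionotropic receptors by limma, with medians of 0.13 and 0.18. With the sign turned 0 were higher and 14 lower in the first list and 0 higher and 13 lower in the second, with medians of -0.27 and -0.29. The shares over all probe sets were 8.13% higher and 9.49% lower by the labels and 6.12% and 10.5% with the sign turned. In the MnSOD line, where the reading does not matter, 3 odorant and 5 of the other receptors were lower. That was near the 6.26% lower over all probe sets in this line. In control flies 16 and 22 were lower by the labels, beside 14.1% over all probe sets. With 1 array left out the 14 ran from 6 to 18 and the 13 from 7 to 29, the lowest without Control +DOX replicate 1 for odorant receptors and without Control +DOX replicate 3 for the others, and the 29 without Control +DOX replicate 4. The higher odorant receptor count by the labels was 4 without MnSOD -DOX replicate 1 or Control +DOX replicate 1 and 3 without Control +DOX replicate 3. The other count by the labels was 4 without MnSOD -DOX replicate 1 or Control +DOX replicate 2 or 3 and 5 without MnSOD -DOX replicate 3 or Control +DOX replicate 1. The receptor counts of both differences were 0 without Control +DOX replicates 1 to 3 or with the spike-in covariate.

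**Figure D3:**
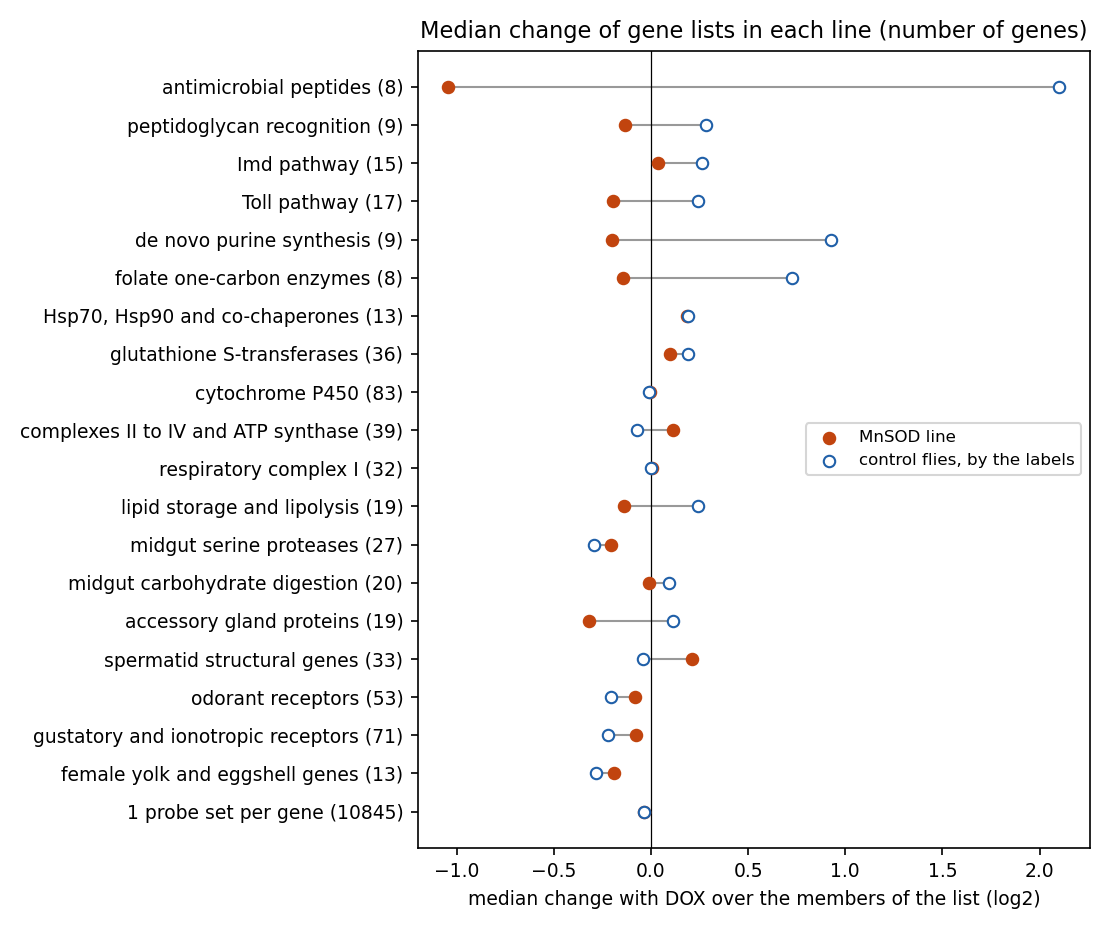
Median change with DOX (horizontal axis, log2) over the members of 19 gene lists and over all genes with 1 probe set each, in the MnSOD line (filled) and in control flies by the labels (open); the number of genes measured stands in brackets. Antimicrobial peptides lie at -1.04 and 2.10 and purine synthesis at -0.20 and 0.93, while both medians over all 10845 genes lie near 0.

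A further 1909 probe sets were called only with the control sign turned, so that the changes of the lines as labelled passed as a sum and not as a difference. sra, a regulator of calcineurin, rose by 0.50 in the MnSOD line (adjusted p = 0.00301) and by 0.42 in control flies (adjusted p = 0.00475), giving 0.08 by the labels (adjusted p = 0.699) and 0.92 with the sign turned (adjusted p = 0.000514). Nplp3, a neuropeptide-like precursor, fell by 0.90 in the MnSOD line (adjusted p = 2.51e-05) and stood at -0.34 in control flies (adjusted p = 0.0243), for -0.56 and -1.24. Hsp26 and Hsp68, heat shock proteins that stress induces, gave 0.71 and 0.70 with the sign turned and 0.15 and -0.15 by the labels. None of these 4 kept the sign-turned call without Control +DOX replicates 1 to 3 together or with the spike-in covariate. Nplp3 gained a call by the labels without MnSOD +DOX day 83 replicate 4 or Control +DOX replicate 1.

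The sizes of the classes depended on single arrays. With 1 array left out, the MnSOD-line driven class ran from 19 to 55 higher and 41 to 94 lower members, and the control driven class from 29 to 633 higher and 94 to 581 lower. The largest control driven counts came without Control +DOX replicate 4, the array of that group that resembled the rest in its spike-in signal, and the smallest without Control +DOX replicate 1. None of the 2468 called differences was called with the opposite sign in any of the refits.

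**Figure D4:**
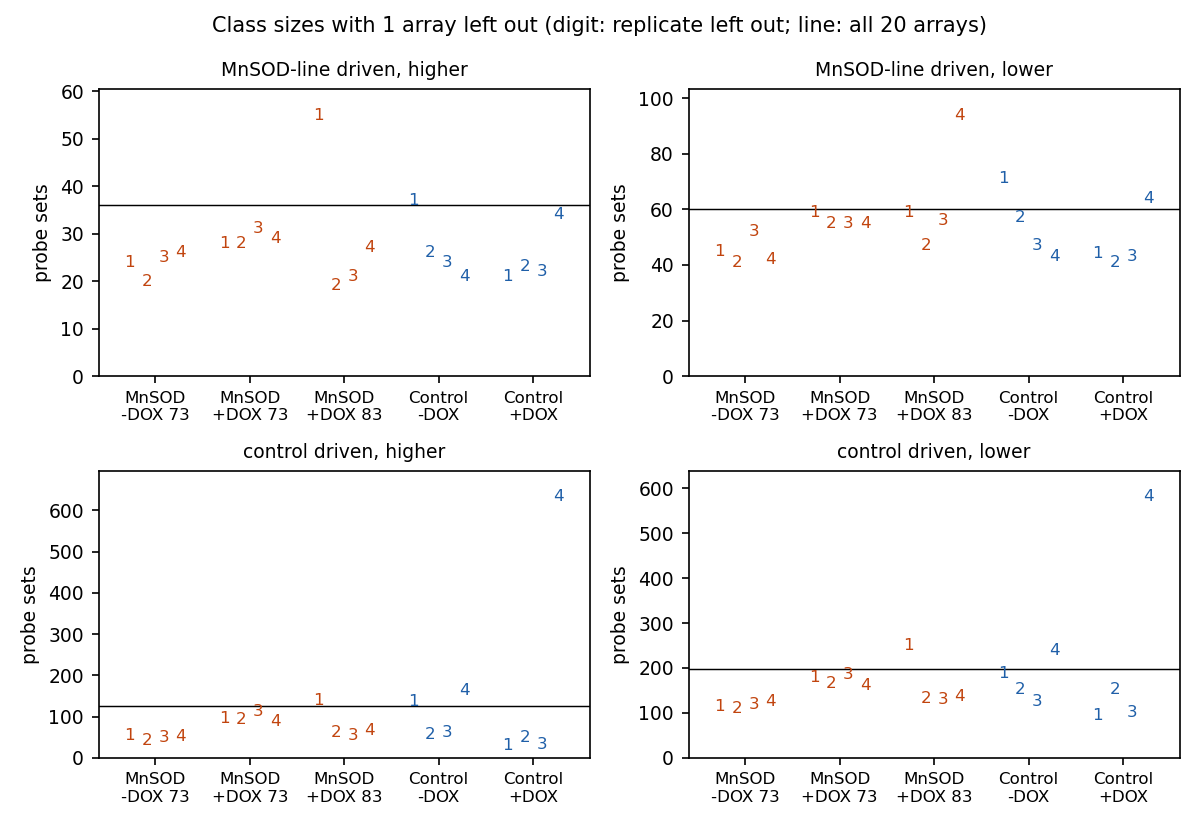
Number of probe sets in each class (vertical axis) when 1 of the 20 arrays is left out; the digit gives the replicate, the horizontal axis its group, and the line the count with all arrays. The control driven counts rise to 633 and 581 without Control +DOX replicate 4, and the MnSOD-line driven counts stay between 19 and 94.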

How the data were processed

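RNA from whole adult males was hybridised to Affymetrix DrosGenome1 arrays, 4 per group in 5 groups. The authors made the deposited log2 values by robust multichip averaging (RMA: background correction, quantile normalization across arrays and median polish) in the affy package, with no version given in the sources read here. No filter was applied by them to the table of 14010 probe sets, and RMA on arrays of unlike quality can spread a shift of dim against bright probe sets over the table.

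From these values a mean per group was fitted over all 20 arrays in limma 3.58.1 (R 4.3.3) with eBayes, and p-values were adjusted by Benjamini-Hochberg within each contrast. Calls needed a fold of 1.2 or more and an adjusted p below 0.01. All adjusted p in the text are p-values of limma, adjusted in scipy 1.17.1. Exact permutation tests over arrays were enumerated in Python 3.11.15, and tables and figures used pandas 2.3.3 and matplotlib 3.10.9. The fitting code was tested on simulated data. Probe sets were named through the platform annotation (12444 with 1 gene, 327 with several and 1239 with none), and lists used the brightest probe set of each of 10845 genes. The genes named were Sod2, the largest rises and falls of each class and of probe sets called in both lines with opposite signs, up to 4 called members of each of 46 gene lists, and genes the study discusses for flies of equal physiological age, 184 in all by this rule. CecB, Drsl5, Drsl6 and the list members given by name only were added after their values were seen.

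The comparison, its members, the lists and the alternatives were chosen with earlier results of these data known. The labels call replicates biological but name no separate cultures, and p-values therefore cover no more than the variation among these arrays, which may be technical. Having 4 arrays a group limits the precision. Replicate numbers did not pair the arrays. Promoter motifs were planned but not analysed here.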

Additional observations from a re-analysis of the deposited data

Results flagged for a closer look

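Of 264 groups of 4 arrays examined, 11 held an array whose gap to its nearest neighbour was large against the range of its group, and chance flags about 1 in 20 groups. Among log2 values these were Lst in Control -DOX replicate 1 (8.43), Sumo in MnSOD -DOX replicate 4 (8.37), CG17097 in MnSOD -DOX replicate 3 (9.37), Drsl6 in MnSOD -DOX replicate 4 (5.71), spz in MnSOD -DOX replicate 2 (7.08), Prat2 in MnSOD +DOX day 83 replicate 1 (7.87), CG16824 in Control +DOX replicate 4 (6.96), Acp63F in MnSOD -DOX replicate 1 (9.60) and Hsp26 in Control -DOX replicate 2 (6.89). Among array measures they were the spike-in mean of Control -DOX replicate 2 (10.2) and the median of MnSOD +DOX day 83 replicate 1 (5.49).

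Between the lines, 253 probe sets were called in both with opposite signs by the labels and were called in the difference too. With the control sign turned the same changes run the same way, so which of these pictures holds depends on the direction of the control groups.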

How the results depend on the processing

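Of the 2468 called differences 1 turned its sign without Control +DOX replicates 1 to 3 together and was not called there, and under the other settings tried none did, but counts moved. They are given as higher and lower by the labels (differences), with the sign turned (turned), MnSOD-line driven (MnSOD) and control driven (control), where over 1.5 times from the main count. With 1 array left out differences ran from 783 to 1771 and 985 to 1871, turned from 490 to 1419 and 711 to 2490, MnSOD from 19 to 55 and 41 to 94, and control from 29 to 633 and 94 to 581. The highest of the differences and turned counts came without Control +DOX replicate 4, and both lowest turned counts without Control +DOX replicate 1. MnSOD lower was 94 without MnSOD +DOX day 83 replicate 4. Without Control +DOX replicates 1 to 3 together, chosen after seeing the data, differences were 96 and 203, turned 6 and 1, MnSOD 1 and 0 and control 0 and 2. With the spike-in covariate, likewise added, they were 334 and 483, 10 and 16, 1 and 5, and 1 and 3. Only the 16 arrays gave MnSOD higher 21 and control 59 and 127. Without the lowest 40% of probe sets differences higher were 609, turned lower 892 and control higher 77. Centred arrays gave turned 1572 and 627, MnSOD 71 and 29 and control 58 and 315. Repeated quantile normalization gave turned lower 887. Array weights gave differences higher 2159, turned 2142 and 3103, MnSOD higher 97 and control 821 and 791. At adjusted p under 0.05 differences were 2284 and 2399, turned 1761 and 3114, MnSOD 112 and 252 and control 632 and 621. At a fold of at least 1.5 differences higher were 543, turned 533 and 506, MnSOD 9 and 17 and control 32 and 130. Classes set by the larger share gave MnSOD 122 and 209 and control 545 and 563, and by the line called alone 158 and 249, and 718 and 737. Apart from the definitions and thresholds, the cause of these moves was not tested. Same-numbered arrays deviated with r of -0.39 to 0.327, and the replicate block gave differences of 1053 and 1265, turned 771 and 1473, MnSOD 30 and 67 and control 96 and 160, and changed no count by over 1.5 times.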
